A study of Mus musculus with 2 samples.

Results

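The SR (serine/arginine-rich) and hnRNP (heterogeneous nuclear ribonucleoprotein) splicing factors were taken by name. A gene was included if its symbol was Srsf followed by a number, or began with Hnrnp, and if GENCODE release M21 gave it at least 1 protein_coding transcript, with processed pseudogene names left out. This gave 31 genes, 20 Hnrnp and 11 Srsf, of 21951 protein-coding genes and 55536 mouse genes in the table. The measurements are polyadenylated RNA, sequenced in paired ends, from G1E-ER4 cells, a mouse erythroid subline made from Gata1-null cells whose GATA1 activity returns when estradiol activates a GATA1 fusion protein. All cells had received 17beta-estradiol at 10 nM over 24 h, the regimen that induces their erythroid differentiation. The only group holds 2 libraries, labelled biological replicates 1 and 2, without an untreated or parental sample. The values are therefore levels in treated cells, and no change with treatment was measured. Both libraries carry the same biosample record, and their spread may therefore be technical.

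SR proteins carry RNA recognition motifs and a domain rich in arginine and serine, bind exonic enhancers, recruit spliceosome components and mostly promote the use of an exon. The hnRNP proteins coat nascent transcripts, and many of them bind silencers in exons and introns and promote skipping. Many genes of both families splice their own transcripts so that the product carries a premature stop codon or keeps an intron, and they hold their protein levels steady in this way. An exon that brings such a stop is called a poison exon. A transcript with a stop well upstream of its last exon junction is a target of nonsense-mediated decay, a surveillance pathway that destroys it. In late erythroid cells, retained introns are a known feature of transcripts of splicing factors.

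The annotation types each transcript as protein_coding, nonsense_mediated_decay, retained_intron or processed_transcript, and the results below turn on these 4 types. A few annotated stretches show what the types mean, all read from GENCODE M21 on assembly mm10. The first set gives the start of a poison exon up to and including its premature stop, which is in capitals. The Hnrnpll exon lies at chr17:80044976-80045022 (minus strand), the Srsf11 exon at chr3:158024209-158024231 (minus strand), the Srsf3 exon at chr17:29039454-29039487 (plus strand) and the Srsf7 exon at chr17:80205054-80205081 (minus strand). These coordinates cover the printed bases, and the whole exons have 83, 109, 456 and 460 bases in the same order.
Hnrnpll-203: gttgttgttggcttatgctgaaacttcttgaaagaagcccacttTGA
Srsf11-206: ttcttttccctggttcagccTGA
Srsf3-206: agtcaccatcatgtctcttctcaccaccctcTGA
Srsf7-203: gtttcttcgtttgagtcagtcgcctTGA

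The second set shows where a retained_intron transcript runs on past the splice donor that the coding transcripts use. The capitals are the last 15 bases of the coding exon, and the lower-case letters are the first 45 bases of the intron that stays in the transcript. They lie at chr2:162932128-162932187 (plus strand) in Srsf6, chr11:88048660-88048719 (plus strand) in Srsf1, chr2:75661803-75661862 (plus strand) in Hnrnpa3, chr13:58394031-58394090 (minus strand) in Hnrnpk and chr19:8820799-8820858 (plus strand) in Hnrnpul2. Of 36 distinct segments of this kind found in 19 members, 35 began with GT, the usual first bases of an intron.
Srsf6-204: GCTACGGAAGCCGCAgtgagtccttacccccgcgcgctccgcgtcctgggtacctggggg
Srsf1-206: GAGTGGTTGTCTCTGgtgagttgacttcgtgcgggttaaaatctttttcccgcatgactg
Hnrnpa3-205: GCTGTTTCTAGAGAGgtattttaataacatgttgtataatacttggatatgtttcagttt
Hnrnpk-228: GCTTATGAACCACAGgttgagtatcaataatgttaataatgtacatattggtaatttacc
Hnrnpul2-202: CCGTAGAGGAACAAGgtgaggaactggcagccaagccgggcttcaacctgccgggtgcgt

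The expected counts, the fragments the authors estimated for each gene, came to 71485617 for replicate 1 against 14121747 for replicate 2, a ratio of 5.06, so the values of replicate 2 rest on fewer fragments. Levels are given in TPM, transcript abundances scaled to a fixed total per library, which divide by transcript length and so can be compared between genes. All 10 erythroid markers examined, among them Gata1 at 2889.9 TPM in replicate 1 against 2661 TPM in replicate 2, were at 1 TPM or more in both libraries. None of 6 granulocyte and monocyte, 5 lymphoid, 4 mast cell and 5 stromal and endothelial markers was, and no such list summed to more than 0.55 TPM in either library, with 4 of the 6 granulocyte and monocyte genes at 0 in both. Of 4 megakaryocyte markers, Itga2b, Gp9 and Gp1ba were detected, with a list sum of 21.5 TPM in replicate 1 against 35.3 TPM in replicate 2, and Pf4 was at 0.

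The splicing factors were abundant in these cells. A level of 1 TPM or more was found in both replicates for 30 of the 31 members, against 33.2% of all protein-coding genes. Levels of 100 TPM or more in both were reached by 10 of 31, or 7 Hnrnp and 3 Srsf genes, against 3.60% of protein-coding genes. The median level of the 30 detected members was 118 TPM in replicate 1 against 83.6 TPM in replicate 2, beside 20.2 and 15.2 TPM over all detected protein-coding genes. Splicing factors are needed in every cell, and these shares are descriptions of a set chosen by name. In bulk RNA, fewer cells with a transcript and less of it per cell cannot be told apart.

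Summed over the 20 Hnrnp genes, the level was 4921 TPM in replicate 1 against 4042 TPM in replicate 2, averaging 4482 ± 621 TPM (SD, n = 2). The 11 Srsf genes together held 1435 TPM in replicate 1 against 2443 TPM in replicate 2, averaging 1939 ± 713 TPM (SD, n = 2). The ratio of the hnRNP to the SR sum, which does not depend on library scaling, was 3.43 in replicate 1 and 1.65 in replicate 2. The mean ratio was 2.54 ± 1.25 (SD, n = 2), so the hnRNP sum was the larger one in both libraries, by an amount that differed widely between them. Srsf2 alone made up 40.4% of the SR sum in replicate 1 and 62.6% in replicate 2, so 1 gene carried much of that difference. Of the hnRNP sum, Hnrnpm held 17.7% in replicate 1 and 1.65% in replicate 2.

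Srsf2 (SC35), an enhancer-binding SR protein whose human gene is recurrently mutated in myeloid neoplasms, was the most abundant of the SR genes in both libraries. It lies at chr11:116849901-116853094, minus strand, and was at 579 TPM in replicate 1 against 1529 TPM in replicate 2, with 52814 expected counts in replicate 1 against 22667 in replicate 2. Its mean was 1054 ± 671 TPM (SD, n = 2), and the authors' posterior interval was from 567 to 577 TPM in replicate 1, against 1420 to 1450 TPM in replicate 2. The reported TPM are maximum likelihood values and can lie outside the posterior interval, as here and, over all 31 members, in 9 cases in replicate 1 and 15 in replicate 2. The 2 intervals do not meet, and the log2 ratio of TPM + 1, replicate 1 over replicate 2, was -1.40. By TPM it ranked 189 in replicate 1 and 83 in replicate 2 among protein-coding genes.

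Srsf10 (SRp38), which acts as a repressor of splicing when it is dephosphorylated in mitosis or heat shock, lies at chr4:135855747-135869908, plus strand. It was at 145 TPM in replicate 1 against 212 TPM in replicate 2, from 5851 expected counts in replicate 1 against 1443 in replicate 2, averaging 179 ± 47.4 TPM (SD, n = 2). The authors' interval was from 140 to 148 TPM in replicate 1, against 190 to 211 TPM in replicate 2, and the log2 ratio was -0.54. Srsf1 (SF2/ASF), the founding member of the family, which acts in constitutive and alternative splicing and in export, lies at chr11:88047373-88053755, plus strand. It was at 175 TPM in replicate 1 against 171 TPM in replicate 2, from 12282 expected counts in replicate 1 against 1479 in replicate 2, averaging 173 ± 2.43 TPM (SD, n = 2). Its intervals, from 168 to 177 TPM in replicate 1, against 151 to 173 TPM in replicate 2, overlap, and its log2 ratio of 0.03 is the one closest to 0 among the 30 detected members.

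The next SR genes differed in order between the libraries. Srsf4 (SRp75), one of the SR proteins with a long RS domain, was at 179 TPM in replicate 1 against 85.5 TPM in replicate 2. Srsf9 (SRp30c), a short-tailed relative of Srsf1, was at 90.9 TPM in replicate 1 against 170.0 TPM in replicate 2. Srsf6 (SRp55), of the same subgroup as Srsf4 and Srsf5, lies at chr2:162931528-162937121, plus strand. It was at 51.0 TPM in replicate 1 against 149 TPM in replicate 2, from 11002 expected counts in replicate 1 against 5166 in replicate 2. Its intervals ran from 49.2 to 51.5 TPM in replicate 1, against 136 to 144 TPM in replicate 2, and its log2 ratio of -1.53 was the lowest of all members, that is, it stood furthest toward replicate 2.

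Srsf11 (p54), a divergent SR protein found with U2AF, was at 72.6 TPM in replicate 1 against 91.7 TPM in replicate 2. Srsf5 (SRp40), an enhancer-binding SR protein, lies at chr12:80945504-80950507, plus strand, and was at 82.7 TPM in replicate 1 against 9.29 TPM in replicate 2. It rested on 4062 expected counts in replicate 1 against 104 in replicate 2, with intervals from 78.4 to 85.3 TPM in replicate 1, against 7.15 to 12.1 TPM in replicate 2, and its log2 ratio was 3.02. Srsf5 was thus higher in replicate 1, the opposite side from its close relative Srsf6. Srsf7 (9G8), which holds a zinc knuckle and links splicing with export, was at 41.0 TPM in replicate 1 against 8.32 TPM in replicate 2. Srsf3 (SRp20), the smallest SR protein, was at 18.7 TPM in replicate 1 against 15.9 TPM in replicate 2, and its intervals overlap, as did those of Srsf1 alone among the other members.

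Srsf12 (SRrp35), a relative of Srsf10 known in human as an antagonist of other SR proteins, was the 1 member not detected. It lies at chr4:33208991-33233340, plus strand, and was at 0 TPM in replicate 1 against 0.35 TPM in replicate 2, from 0 and 3 expected counts. A count of 0 in replicate 1 allows up to 3 counts, or 0.042 CPM (counts scaled by library total), and the 3 counts in replicate 2 are 0.212 CPM, which is the floor of 3 counts in that library. Floors and intervals cover counting error only. The authors' interval was from 0.000316 to 0.0665 TPM in replicate 1, against 0.0855 to 0.872 TPM in replicate 2, and the log2 ratio was -0.43, a value that rests on these 3 counts.

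**Figure D1:**
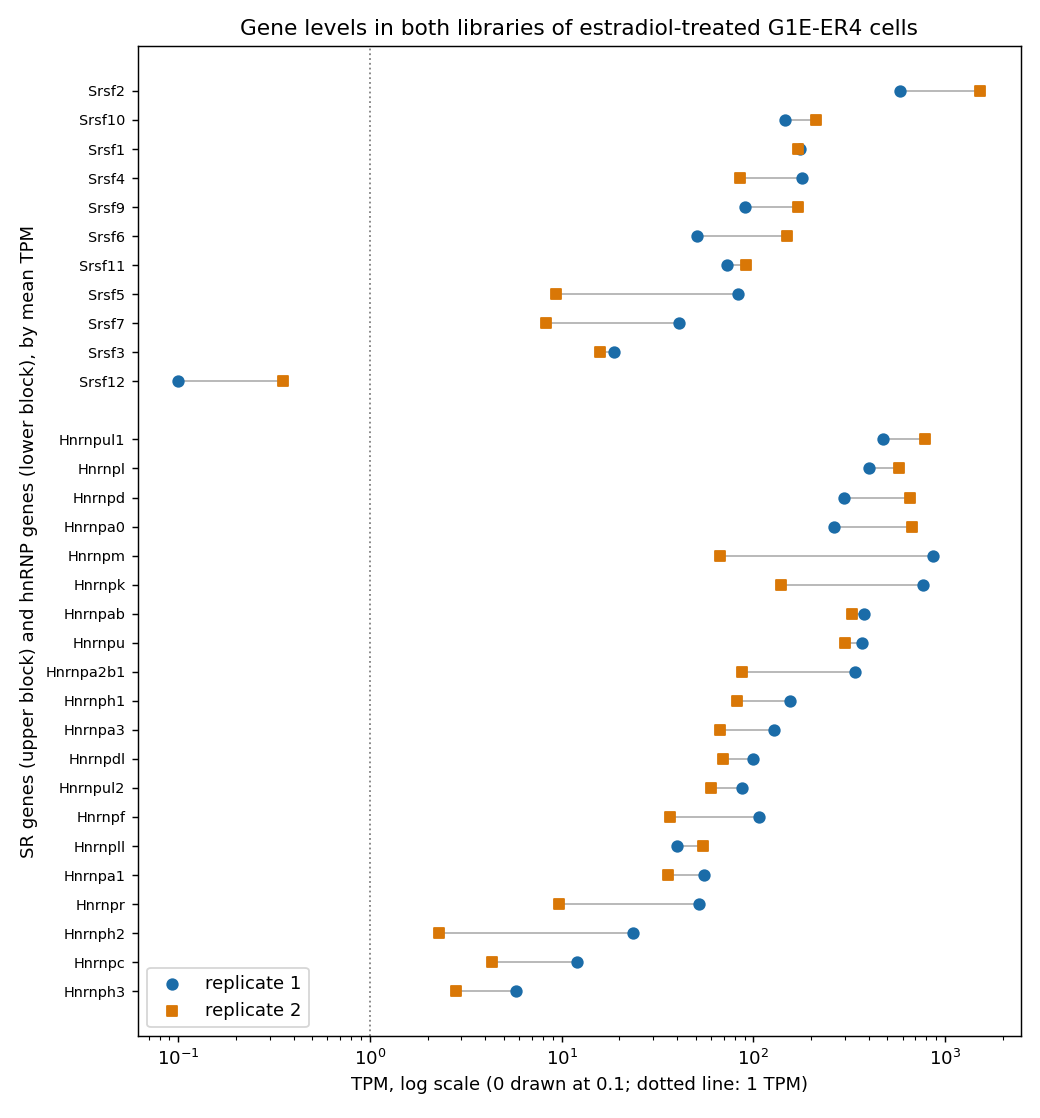
Level of each of the 31 genes in TPM on a log axis, 1 row per gene, with replicate 1 as circles and replicate 2 as squares joined by a line, SR genes above and hnRNP genes below, each by mean TPM. All genes but Srsf12 lie right of the dotted line at 1 TPM, and the longest lines belong to Hnrnpm, Hnrnph2 and Srsf5, all higher in replicate 1.

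Among the hnRNP genes, the highest mean belonged to Hnrnpul1, a relative of hnRNP U that takes part in transcription and in the response to DNA breaks. It lies at chr7:25721165-25754757, minus strand, and was at 472 TPM in replicate 1 against 787 TPM in replicate 2, from 123707 expected counts in replicate 1 against 35515 in replicate 2, averaging 629 ± 223 TPM (SD, n = 2). The authors' interval was from 463 to 468 TPM in replicate 1, against 730 to 746 TPM in replicate 2, and the log2 ratio was -0.74. Hnrnpul2, its paralog, was at 87.2 TPM in replicate 1 against 60.1 TPM in replicate 2. Hnrnpu itself (SAF-A), the nuclear matrix protein that helps to organize chromatin and binds many introns, was at 371 TPM in replicate 1 against 302 TPM in replicate 2.

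Hnrnpl, which binds CA-rich elements, lies at chr7:28808541-28822266, plus strand, and was at 399 TPM in replicate 1 against 576 TPM in replicate 2, from 55154 expected counts in replicate 1 against 12968 in replicate 2. Its mean was 487 ± 125 TPM (SD, n = 2), its intervals ran from 390 to 398 TPM in replicate 1, against 531 to 551 TPM in replicate 2, and its log2 ratio was -0.53. Hnrnpll, the paralog that directs the splicing of Ptprc (CD45) in lymphocytes, was lower, at 40.0 TPM in replicate 1 against 54.4 TPM in replicate 2. Both paralogs were higher in replicate 2.

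Hnrnpd (AUF1), which binds AU-rich elements and controls the decay of messenger RNA, lies at chr5:99955935-99978938, minus strand, and was at 296 TPM in replicate 1 against 659.8 TPM in replicate 2, from 30043 expected counts in replicate 1 against 9059 in replicate 2. Its mean was 478 ± 257 TPM (SD, n = 2), its intervals ran from 289 to 298 TPM in replicate 1, against 607 to 633 TPM in replicate 2, and its log2 ratio was -1.15. Its relative Hnrnpdl was at 99.99 TPM in replicate 1 against 69.9 TPM in replicate 2, and Hnrnpab, another relative of the family, at 376 TPM in replicate 1 against 327 TPM in replicate 2. Hnrnpd was higher in replicate 2, and the other 2 in replicate 1. Gene levels in the authors' second table, estimated from reads, were rescaled here to an equal total over nuclear protein-coding genes. After this rescaling Hnrnpdl and Hnrnpab were lower in replicate 1, with Hnrnpab at 438 TPM in replicate 1 against 471 TPM in replicate 2. As deposited, that table had both higher in replicate 1, with Hnrnpab at 324 against 112 TPM. Their direction thus depended on the table and its scaling.

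The A group binds UAG-containing silencers and counters SR proteins at splice sites. Hnrnpa0, a gene with 1 annotated transcript that binds AU-rich RNA, lies at chr13:58125879-58128556, minus strand, and was at 263 TPM in replicate 1 against 675 TPM in replicate 2, from 48233 expected counts in replicate 1 against 21228 in replicate 2. Its mean was 469 ± 291 TPM (SD, n = 2), its intervals ran from 258 to 262 TPM in replicate 1, against 624 to 641 TPM in replicate 2, and its log2 ratio was -1.35. The other members of the group were higher in replicate 1. Hnrnpa2b1, which also sorts RNA for transport, was at 339.6 TPM in replicate 1 against 87.2 TPM in replicate 2. Hnrnpa3 was at 128 TPM in replicate 1 against 66.7 TPM in replicate 2, and Hnrnpa1, the classical antagonist of Srsf1 in the choice of donor sites, at 55.0 TPM in replicate 1 against 36.0 TPM in replicate 2.

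Hnrnpm, which binds GU-rich RNA and is known for its part in epithelial splicing choices, was the member furthest apart between the libraries. It lies at chr17:33646233-33686860, minus strand, and was at 869 TPM in replicate 1 against 66.6 TPM in replicate 2, from 32545 expected counts in replicate 1 against 816 in replicate 2, averaging 468 ± 567 TPM (SD, n = 2). Its intervals ran from 843 to 874 TPM in replicate 1, against 55.4 to 74 TPM in replicate 2, and the log2 ratio was 3.69. Its TPM was 13.0-fold higher in replicate 1, and its CPM, which do not divide by length, 7.88-fold higher. Hnrnpk, which binds C-rich RNA through KH domains, was at 769.7 TPM in replicate 1 against 139 TPM in replicate 2. Hnrnpr, a close relative of Syncrip, was at 52.3 TPM in replicate 1 against 9.66 TPM in replicate 2.

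The H and F group binds G tracts. Hnrnph1 was at 155 TPM in replicate 1 against 81.7 TPM in replicate 2, and Hnrnpf at 107 TPM in replicate 1 against 36.6 TPM in replicate 2. Hnrnph2, on the X chromosome at chrX:134601179-134607060, plus strand, was at 23.6 TPM in replicate 1 against 2.30 TPM in replicate 2, from 2970 expected counts in replicate 1 against 63 in replicate 2. Its intervals ran from 22.4 to 24.2 TPM in replicate 1, against 1.77 to 2.89 TPM in replicate 2, and its log2 ratio was 2.90. Hnrnph3 had the lowest mean of the detected members, at 5.75 TPM in replicate 1 against 2.82 TPM in replicate 2. Hnrnpc, which packages nascent RNA and binds uridine tracts, was next above it by mean, at 12.1 TPM in replicate 1 against 4.32 TPM in replicate 2. All members of the H and F group were higher in replicate 1. The table estimated from reads, once rescaled as above, put the 3 members furthest toward replicate 1 closer together. In it Hnrnpm was at 984 TPM in replicate 1 against 157 TPM in replicate 2, Srsf5 at 87.8 and 35.8 TPM, and Hnrnph2 at 25.9 and 6.82 TPM. As deposited, that table had Hnrnpm at 729 and 37.4 TPM, Srsf5 at 65.0 and 8.53 TPM, and Hnrnph2 at 19.2 and 1.62 TPM. Their closeness thus depended on the rescaling.

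Between replicates, 15 of the 30 members whose mean expected count reached 50 differed by more than 2-fold in TPM, beside 50.9% of all 9029 genes with that count. Over 2-fold higher in replicate 1 were 11 members (background 35.4%), and over 2-fold lower in replicate 1 were 4 (background 15.5%). The members were thus no further apart, by this count, than genes in general. The authors' intervals did not overlap for 28 of the 30 members, beside 75.0% of all genes. These intervals describe the estimate within a library and not the spread between libraries. Across the 30 detected members the log2 levels in both libraries had a Pearson correlation of 0.801 and a Spearman correlation of 0.766, beside 0.846 and 0.83 over 8485 protein-coding genes; genes are not replicates, and no p is given.

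The split depended on the scaling. The median log2 ratio, replicate 1 over replicate 2, was 0.52 over the members and 0.31 over all protein-coding genes, a difference of 0.21. With CPM the medians were 0.95 and 0.56, and 15 members were over 2-fold higher in replicate 1 against 3 lower. In the authors' table made from reads, rescaled as above, the medians were 0.23 and 0.08, and 5 members were higher against 5 lower. Single members turned direction in that rescaled table. Besides Hnrnpab and Hnrnpdl, Hnrnpu was lower in replicate 1 there, at 473 TPM against 659 TPM in replicate 2. Srsf3 was also lower in replicate 1 there, at 22.9 against 24.7 TPM. Srsf11 was higher in replicate 1 there, at 128 against 89.9 TPM, and also with CPM. As deposited, the table had all 3 higher in replicate 1. Hnrnpu was at 351 against 157 TPM, Srsf3 at 17.0 against 5.89 TPM and Srsf11 at 95.1 against 21.4 TPM. Hnrnpu and Srsf1 turned with the older GENCODE release M4. With DESeq2 size factors the median over all genes was 0.17, and with posterior mean TPM it was 0.025. Relative to the median of all genes, the members stood between 0.12 and 0.56 toward replicate 1 under the 9 settings compared.

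GC content moved with these differences. Across the 30 members, GC content and the log2 ratio had a Pearson correlation of -0.482 and a Spearman correlation of -0.48, beside -0.185 and -0.193 over 8485 protein-coding genes. The genes share both libraries, and the correlation is a description. Of the 15 members with GC content at or above the members' median, 8 were lower in replicate 1, and of the 15 below it, 2 were. Srsf6, with a GC content of 50.6%, and Hnrnpa0, with 55.4%, were among those lower in replicate 1. Hnrnph2, with 42.7%, and Srsf5, with 45.1%, were among those higher in replicate 1. After the median of each of 20 GC bins was taken away, the median of the members was 0.12, with 7 members over 2-fold higher in replicate 1 against 8 lower, and Hnrnpm still stood at 3.11, Srsf5 at 2.63 and Srsf6 at -2.08. The part of GC content in the result was not tested beyond this.

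**Figure D2:**
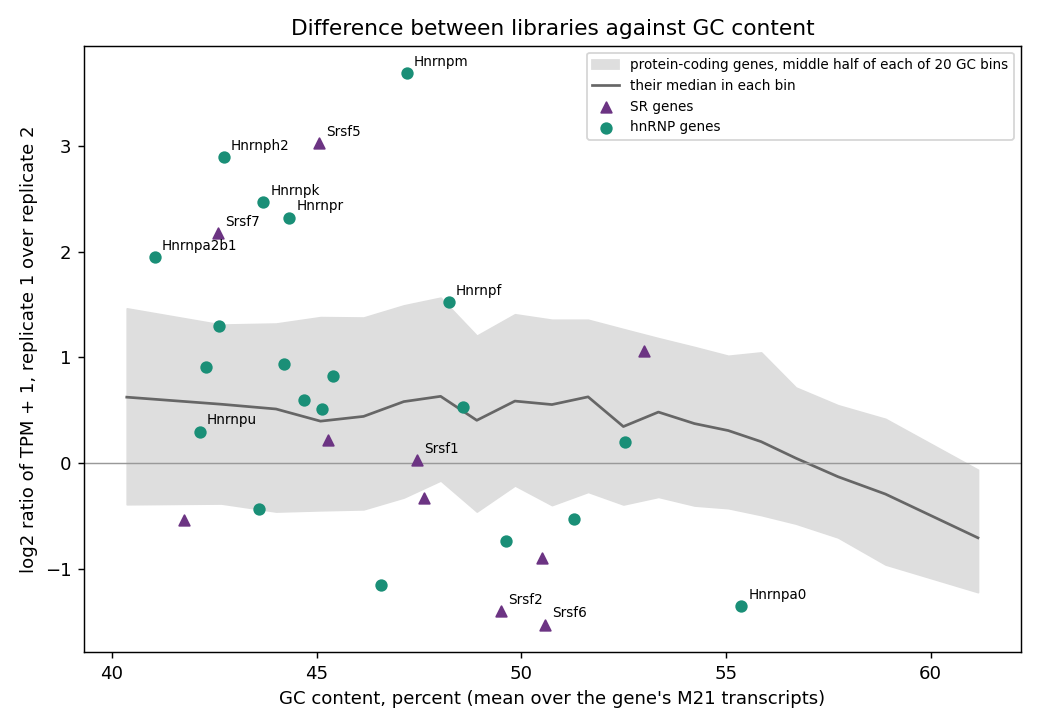
The log2 ratio of TPM + 1, replicate 1 over replicate 2, against the GC content of each of the 30 detected genes, with SR genes as triangles and hnRNP genes as circles. The line is the median of protein-coding genes in 20 bins of GC content and the band spans their lower to upper quartile; Hnrnpm, Srsf5 and Hnrnph2 lie above the band, and Srsf2, Srsf6 and Hnrnpa0 below it.

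Turning to the transcripts, part of the RNA of both families was assigned to types other than protein_coding. These types are grouped by their label, since a nonsense_mediated_decay transcript can hold a whole coding frame, as Hnrnpa1-203, Hnrnpdl-201 and Hnrnpa2b1-207 do. Of the summed TPM of the hnRNP genes, 45.4% in replicate 1 and 36.1% in replicate 2 lay on types other than protein_coding. Of the SR sum it was 24.0% in replicate 1 and 24.8% in replicate 2. Summed over 3354 protein-coding genes with 10 TPM in both libraries and transcripts of both kinds, it was 35.5% and 38.0%. The SR share was below these values, and the hnRNP share above in replicate 1 and below in replicate 2. The family sums were not filtered in this way. Short transcripts weigh more in TPM than in counts. As shares of expected counts, protein_coding transcripts held 72.9% in replicate 1 and 76.7% in replicate 2 for hnRNP genes, and 86.7% and 77.5% for SR genes. In the table made from reads they held 64.2% and 63.3% for hnRNP genes, and 59.9% and 66.5% for SR genes. Which family had the larger non-coding share in replicate 1 thus depended on the table.

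The make-up was not the same in both families. In the hnRNP sum, nonsense_mediated_decay transcripts held 12.7% in replicate 1 and 23.7% in replicate 2, and retained_intron transcripts 14.7% and 9.39%. In the SR sum, nonsense_mediated_decay transcripts held 1.78% in replicate 1 and 1.94% in replicate 2, and retained_intron transcripts 6.82% and 13.3%. No test of the difference was made. In the table made from reads, nonsense_mediated_decay transcripts held 11.5% and 19.9% of the hnRNP sum, and 0.86% and 0.786% of the SR sum. Retained_intron transcripts held 6.63% and 13.0% of the hnRNP sum there, and 21.3% and 18.1% of the SR sum. The order of the retained_intron shares in replicate 1 thus depended on the table. The largest hnRNP transcript of the nonsense_mediated_decay type was Hnrnpu-206 in replicate 1 and Hnrnpd-205 in replicate 2. By member, 9 of the 21 members that had 10 TPM in both libraries and transcripts of both kinds were at 50% or more on non-coding types in both replicates, beside 27.5% of 3354 such protein-coding genes. The median share was 42.0% in replicate 1 and 75.8% in replicate 2 over these members, beside 18.4% and 20.5% over all such genes. Summed over TPM, so that abundant genes weigh more, it was 46.6% in replicate 1 and 38.0% in replicate 2 over the members, beside 35.5% and 38.0%.

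**Figure D3:**
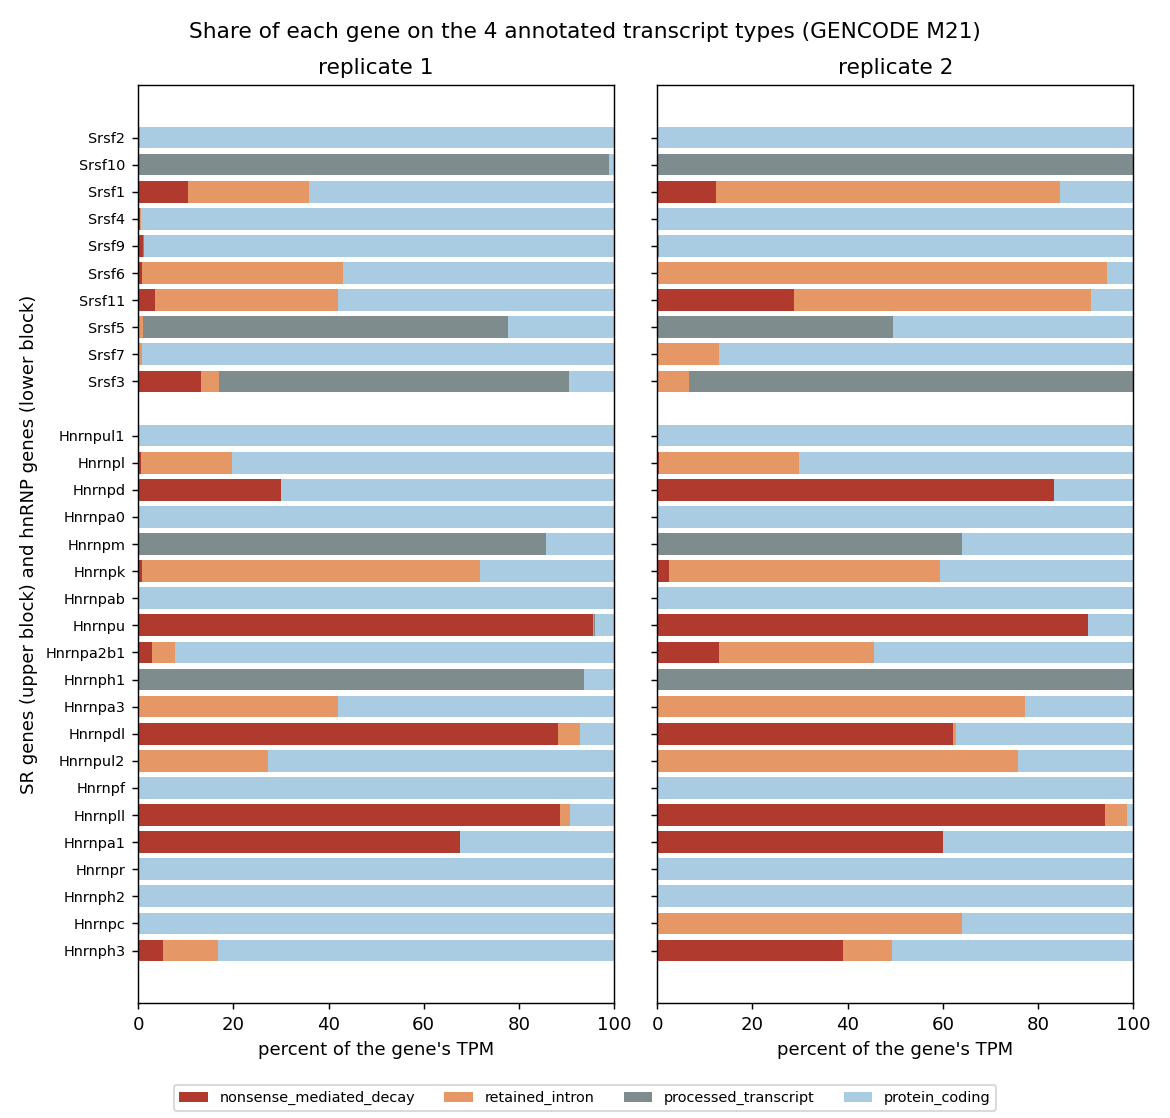
Percent of each detected gene's TPM on the 4 annotated transcript types, with replicate 1 in the left panel and replicate 2 in the right one, SR genes above and hnRNP genes below. Hnrnpu, Hnrnpll and Hnrnpdl are mostly nonsense_mediated_decay in both panels, Srsf10 and Hnrnph1 mostly processed_transcript, and Srsf2 and Hnrnpul1 almost wholly protein_coding.

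Poison exons were counted through the transcripts that end their reading frame in an exon no coding transcript has. There are 11 such transcripts in 7 members, and most of them were rare here. Hnrnpll was the exception. Its transcript Hnrnpll-203, which holds the 83-base poison exon printed above, was at 35.5 TPM in replicate 1 against 51.2 TPM in replicate 2, from 6659 and 1651 expected counts. That is 88.7% and 94.1% of the TPM of the gene, and 73.4% and 79.4% in the table made from reads. Its stop has 7 exons behind it, 807 bases before the last junction. The main coding transcript, Hnrnpll-201, was at 3.74 TPM in replicate 1 against 0.69 TPM in replicate 2. The poison exon transcript was thus the higher of the 2 in each library, and the 2 transcripts share their inner exons apart from this one and from a shift of 1 base at one intron, as the exon maps show.

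Srsf11 also had nonsense_mediated_decay transcripts. Srsf11-206, with the poison exon printed above, was at 2.50 TPM in replicate 1 against 14.4 TPM in replicate 2, or 3.45% and 15.7% of the gene. Srsf11-212, whose stop lies in another exon that no coding transcript has, was at 0 TPM in replicate 1 against 11.96 TPM in replicate 2, from 0 and 39 expected counts. The table made from reads gave Srsf11-206 1.35% in replicate 1 and 0% in replicate 2, so its share in replicate 2 depended on the table.

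The other poison exon transcripts were below 3 TPM in both libraries. Hnrnpl-213 was at 2.64 TPM in replicate 1 against 1.72 TPM in replicate 2. Srsf3-206, with the Srsf3 exon printed above, was at 2.19 TPM in replicate 1 against 0 TPM in replicate 2, and Srsf3-201, with the same exon, at 0.28 TPM in replicate 1 against 0 TPM in replicate 2. As a share of a gene of low level this was more, since Srsf3-206 held 11.7% and 0%, and 19.6% and 31.2% in the table made from reads. Srsf4-203 and Srsf4-204 summed to under 1 TPM in replicate 1 and were listed at 0 in replicate 2. Srsf9-205 was at 0.93 TPM in replicate 1 against 0 TPM in replicate 2, and Srsf7-203, with the Srsf7 exon printed above, at 0.06 TPM in replicate 1 against 0 TPM in replicate 2. Since the decay pathway removes such RNA, a low level here does not say how often the exon was spliced in.

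Most of the RNA typed as nonsense_mediated_decay belonged to other structures. Over all 35 such transcripts of 19 members it summed to 648 TPM in replicate 1 against 1004 TPM in replicate 2. Poison exon transcripts held 6.91% of it in replicate 1 and 7.90% in replicate 2. Transcripts that share their stop with a coding transcript but have exon junctions after it held 10.2% and 4.52%, and 12 transcripts with another stop held 82.8% and 87.6%.

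Hnrnpu-206 made up most of this last class in replicate 1. It was at 354 TPM in replicate 1 against 273 TPM in replicate 2, from 69119 and 9146 expected counts, which was 95.6% and 90.5% of the gene's TPM. Hnrnpu-201, the 1 coding transcript of the gene, was at 15.1 TPM in replicate 1 against 28.7 TPM in replicate 2. Hnrnpu-206 has 2844 bases in 17 exons, of which 267 bases are absent from Hnrnpu-201, and it ends in short exons in place of the long last exon that makes Hnrnpu-201 7640 bases long. The 2 transcripts thus share most of the bases of Hnrnpu-206, and reads in the shared exons can be given to either by the model. With the older release M4, which lacks Hnrnpu-206, the gene had 8222 expected counts in replicate 1 and 2587 in replicate 2. With M21 it had 77446 and 11807, of which Hnrnpu-201 held 8185 and 2661. Most fragments placed on Hnrnpu-206 were thus not placed on Hnrnpu-201 when Hnrnpu-206 was absent. Which of its bases they cover was not tested. The table made from reads put 97.5% of the gene on Hnrnpu-206 in replicate 1 and 99.2% in replicate 2.

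Hnrnpd-205, of 1104 bases, was at 88.6 TPM in replicate 1 against 549.6 TPM in replicate 2, or 29.9% and 83.3% of the gene. It was the transcript with the highest level of its gene in replicate 2 but not in replicate 1, where the coding Hnrnpd-201 was at 109.8 TPM. The table made from reads gave Hnrnpd-205 2.18% in replicate 1 and 38.5% in replicate 2. Hnrnpdl-205 was at 69.8 TPM in replicate 1 against 32.0 TPM in replicate 2, or 69.8% and 45.9% of its gene, and Hnrnpdl-201, which shares its stop with a coding transcript, at 18.5 TPM in replicate 1 against 11.3 TPM in replicate 2. Hnrnpa1-203, whose annotated coding part is the same as that of Hnrnpa1-202, was at 36.1 TPM in replicate 1 against 21.4 TPM in replicate 2, or 65.8% and 59.4%. In Srsf1, Srsf1-204 was at 18.04 TPM in replicate 1 against 19.2 TPM in replicate 2, close in both libraries, but held under 1% of the gene in the table made from reads. In Hnrnph3, Hnrnph3-204 was at 0.3 TPM in replicate 1 against 1.10 TPM in replicate 2, from 32 and 20 expected counts, and held 81.1% and 75.2% of the gene in the table made from reads.

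Retained_intron transcripts held 20% or more of the TPM in both replicates in Srsf6, Srsf1, Srsf11, Hnrnpk, Hnrnpa3 and Hnrnpul2. Srsf6-204, which runs through a whole intron of Srsf6-203 and in which 672 bases after the donor printed above are in no coding transcript, was at 21.5 TPM in replicate 1 against 141 TPM in replicate 2. Its share of the gene was 42.2% in replicate 1 against 94.6% in replicate 2, while the coding Srsf6-203 was at 27.1 TPM in replicate 1 against 8.10 TPM in replicate 2. The higher level of Srsf6 in replicate 2 lay in this transcript, since the coding one was higher in replicate 1. The table made from reads gave Srsf6-204 49.7% in replicate 1 and 91.1% in replicate 2.

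Srsf1-206, a transcript of 645 bases with 152 retained bases, was at 44.4 TPM in replicate 1 against 124 TPM in replicate 2, and the coding Srsf1-202 at 105 TPM in replicate 1 against 22.5 TPM in replicate 2. The gene's total was close in both libraries, while its retained_intron share was 25.4% in replicate 1 and 72.4% in replicate 2. In the table made from reads Srsf1-206 held 78.7% and 87.5%, so the step between the libraries was smaller there. In Srsf11, retained_intron types held 38.5% in replicate 1 and 62.4% in replicate 2, led by Srsf11-215 at 15.3 TPM in replicate 1 against 12.9 TPM in replicate 2 and Srsf11-203 at 4.24 TPM in replicate 1 against 33.6 TPM in replicate 2. Srsf11-201, the most abundant coding transcript in replicate 1, was at 20.8 TPM there and listed at 0 in replicate 2.

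Hnrnpk-228, of 743 bases, was at 528 TPM in replicate 1 against 78.7 TPM in replicate 2, or 68.6% and 56.8% of the gene, and the coding Hnrnpk-214 at 147 TPM in replicate 1 against 30.7 TPM in replicate 2. The table made from reads gave Hnrnpk-228 5.38% in replicate 1 and 65.5% in replicate 2, so its share in replicate 1 depended on the quantification. Hnrnpa3-205, of 596 bases, was at 53.8 TPM in replicate 1 against 51.5 TPM in replicate 2, close in both libraries, while the coding Hnrnpa3-204 was at 67.3 TPM in replicate 1 against 8.68 TPM in replicate 2. Hnrnpul2-202, with 1990 retained bases, was at 23.8 TPM in replicate 1 against 45.5 TPM in replicate 2, while the coding Hnrnpul2-201 was at 63.3 TPM in replicate 1 against 14.5 TPM in replicate 2. In Hnrnpa3, Hnrnpul2, Srsf1 and Srsf6, the coding transcript named was higher in replicate 1.

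Retained_intron transcripts were also found in further members, of which 3 hnRNP genes are described here. Among the others, they held 11.5% of the TPM in replicate 1 and 10.3% in replicate 2 in Hnrnph3. In Srsf7 they held 0.658% and 13.0%, and in Srsf3 3.80% and 6.65%. In Hnrnpl they held 19.1% of the TPM in replicate 1 and 29.4% in replicate 2. Hnrnpl-212 was at 38.8 TPM in replicate 1 against 45.3 TPM in replicate 2, and Hnrnpl-203 at 1.75 TPM in replicate 1 against 109.6 TPM in replicate 2. Hnrnpl-203 held 0.439% and 19.0% of the gene, but under 1% in both libraries in the table made from reads. Hnrnpa2b1-213, with a length of 3645 bases, was at 13.8 TPM in replicate 1 against 28.4 TPM in replicate 2, while the coding Hnrnpa2b1-202 was at 239.8 TPM in replicate 1 against 18.6 TPM in replicate 2. Hnrnpc-212 was listed at 0 in replicate 1 and was at 2.77 TPM in replicate 2, from 16 expected counts.

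Over the 17 members with 10 TPM in both libraries and a retained_intron transcript, the median share of that type was 4.66% in replicate 1 and 6.65% in replicate 2, beside 4.59% and 2.89% over 2643 protein-coding genes. The share was lower in replicate 1 for 9 of the 17 members, beside 40.0% of the genes. Polyadenylated RNA can hold nuclear and partly spliced molecules, and the fraction of such RNA in each library was not measured.

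**Figure D4:**
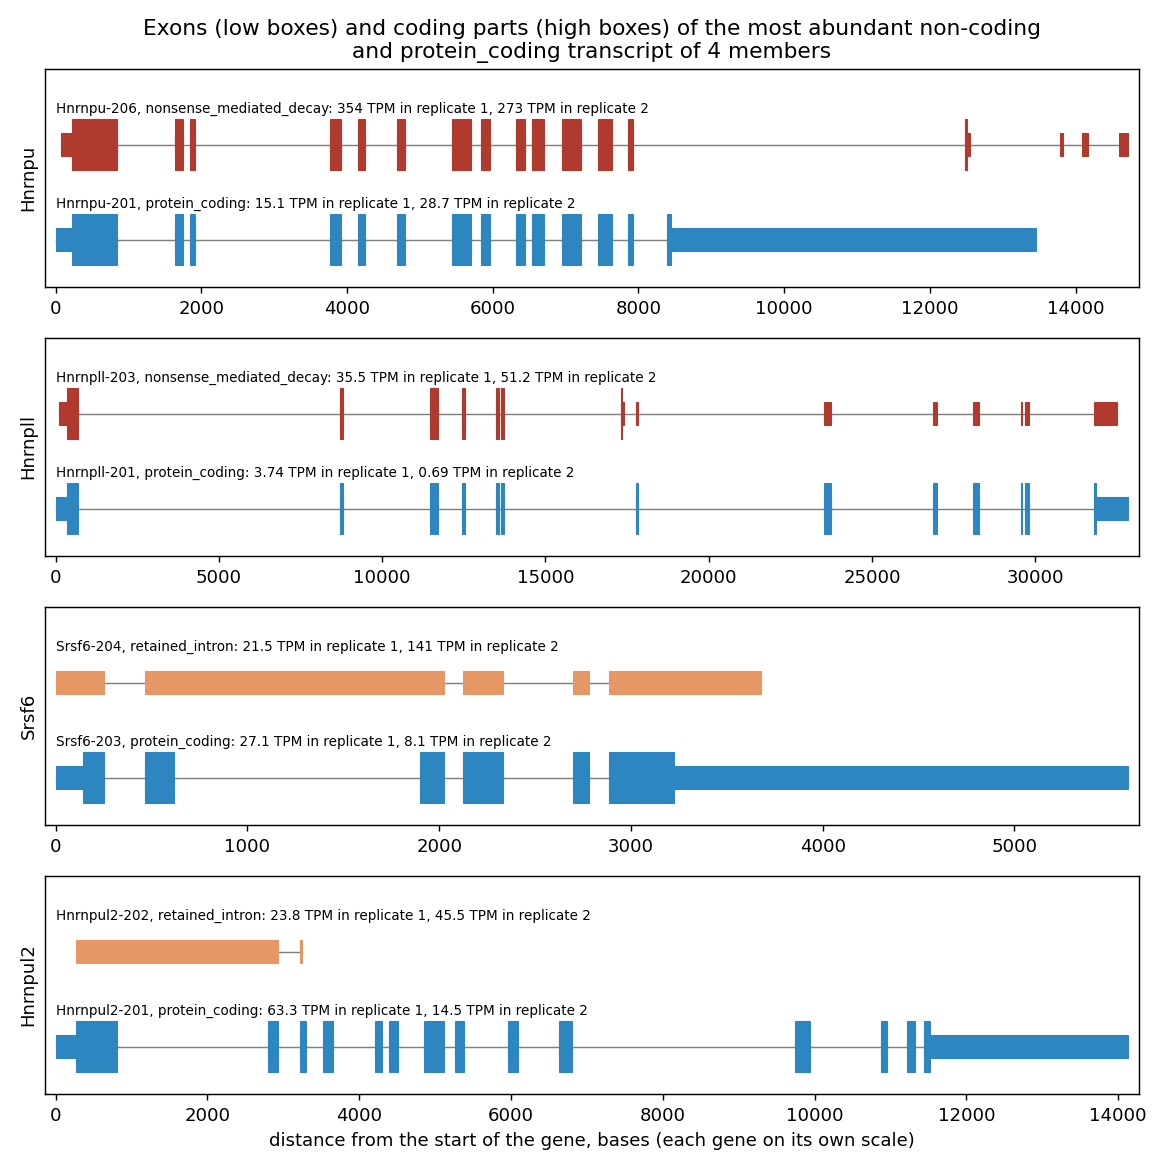
Exon maps of the most abundant non-coding and the most abundant protein_coding transcript of Hnrnpu, Hnrnpll, Srsf6 and Hnrnpul2, drawn by distance in bases from the start of the gene, with low boxes for exons, high boxes for coding parts and the TPM of both replicates beside each name. Hnrnpll-203 differs by 1 extra exon, after which no coding part follows, Hnrnpu-206 has small exons in place of the long last exon, and Srsf6-204 and Hnrnpul2-202 run through introns that the coding transcripts remove.

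The remaining non-coding RNA was of the processed_transcript type, transcripts with no annotated frame. Srsf10-210, of 677 bases, held 94.5% and 99.9% of the TPM of Srsf10, and 89.4% and 99.4% of its expected counts. Hnrnph1-208 and Hnrnph1-206, of 582 and 581 bases, were at 61.6 and 61.5 TPM in replicate 1, and in replicate 2 at 76.8 TPM and at 0. In the table made from reads Hnrnph1-206 was the larger one in both libraries, with 72.6% and 45.8% of the gene. Hnrnpm-209, of 380 bases, was at 744 TPM in replicate 1 against 42.6 TPM in replicate 2, or 85.6% and 64.0% of the gene, but 37.8% and 16.1% of its expected counts. The coding Hnrnpm-201 was at 119 TPM in replicate 1 against 10.3 TPM in replicate 2, so both transcripts were higher in replicate 1. Srsf3-208, of 319 bases, held 70.7% and 93.3% of the TPM of Srsf3, and 20.7% and 53.7% of its expected counts. In Srsf5 this type held 76.7% in replicate 1 and 49.5% in replicate 2, led by Srsf5-211 at 37.9 TPM in replicate 1 against 2.34 TPM in replicate 2. The coding Srsf5-205 was at 0.63 TPM in replicate 1 against 3.57 TPM in replicate 2, and was the most abundant transcript of the gene in replicate 2.

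In 6 members, the non-coding types held 50% or more in both replicates by TPM, by expected counts and in the table made from reads. These were Hnrnpu, Hnrnph1, Hnrnpll, Hnrnpa1, Srsf10 and Srsf3. In 9 members the types held under 2% by the same 3 measures, and these were Srsf2, Srsf4, Srsf9, Hnrnpul1, Hnrnpa0, Hnrnpab, Hnrnpf, Hnrnpr and Hnrnph2. The shares of all protein-coding genes that meet these criteria were not computed. It is therefore not known whether the members differ from genes in general in either count. For Hnrnpa0, Hnrnpab, Hnrnpf and Hnrnph2 the 0% is set by the annotation, which gives them protein_coding transcripts only, while Hnrnpr had 0% in both libraries with transcripts of both kinds annotated. Srsf7 was at 0.805% in replicate 1 and 13.0% in replicate 2. Srsf2 has annotated decay transcripts, and Srsf2-204 was at 0.06 TPM in replicate 1 and listed at 0 in replicate 2. Srsf2-202, whose bases all lie in exons of coding transcripts, was listed at 0 in both. The authors' interval for it was from 0.508 to 25.7 TPM in replicate 1, and reached 42.8 TPM in replicate 2. The level of this transcript is therefore poorly resolved. By the listed values, Hnrnpul1 and Srsf2, the hnRNP and the SR gene of highest mean TPM, were both almost wholly on coding transcripts.

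The most abundant transcript was the same in both libraries for 16 of the 30 detected members. Among the 21 members compared with the background, it was the same for 14, beside 66.2% of 3354 genes. In 7 of these 21 it was protein_coding in replicate 1 and of another type in replicate 2, beside 11.3% of the genes, and in 0 of 21 the reverse held, beside 6.11%. Over all 30 members, 8 were of the first kind and 1, Srsf5, was of the second. The 8 were Srsf1, Srsf6, Srsf11, Hnrnpa2b1, Hnrnpa3, Hnrnpc, Hnrnpd and Hnrnpul2. In the table made from reads, only Hnrnpa2b1 and Hnrnpul2 of these still switched in this way. For Hnrnpa2b1 the lead in replicate 2 was narrow, with Hnrnpa2b1-213 at 28.1% and the coding Hnrnpa2b1-201 at 27.1%. Hnrnpk, which is not among the 8, also switched in that table. Its main transcript was the coding Hnrnpk-213 in replicate 1, at 53.9%, and Hnrnpk-228 in replicate 2, at 65.5%. Among the 8, a retained_intron transcript was the most abundant one there in both libraries for Srsf1, Srsf6, Srsf11 and Hnrnpa3. For Hnrnpc and Hnrnpd it was a coding transcript in both. The background shares were not computed for that table.

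In 5 members the main transcript differed but was coding in both libraries. Hnrnpab-203 held 96.1% of its gene in replicate 1 and 28.2% in replicate 2, where Hnrnpab-202 held 69.9%. In the table made from reads Hnrnpab-203 held 97.8% and 98.7%, so it was the main transcript in both libraries there. Srsf7-205 held 85.2% in replicate 1 and 0% in replicate 2, where Srsf7-208 held 60.5%. Hnrnph2-201 held 73.4% in replicate 1 and was listed at 0 in replicate 2, where Hnrnph2-202 held 83.4%, from 53 expected counts. The table made from reads gave Hnrnph2-201 77.8% and 72.1%. In Hnrnpr, Hnrnpr-204 held 52.4% in replicate 1 and Hnrnpr-202 held 39.9% in replicate 2. Hnrnph3 was the last of these, and it rested on 32 expected counts in replicate 2.

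Which release of the annotation was used changed some of these levels. The authors also deposited tables made with the older GENCODE release M4. The median ratio of M21 over M4 was 0.951 in replicate 1 and 0.906 in replicate 2 over the members, and 5 of 31 differed over 1.5-fold in both libraries. The same values over all genes were not computed, so it is not known whether the members differ from genes in general here. Hnrnpu was at 371 TPM with M21 against 16.3 TPM with M4 in replicate 1, and at 302 against 30.8 TPM in replicate 2, which are ratios of 22.7 and 9.79. Transcripts that M4 lacks, chiefly Hnrnpu-206, held 95.8% of the M21 value in replicate 1 and 90.5% in replicate 2. Srsf3 was at 18.7 TPM with M21 against 4.96 TPM with M4 in replicate 1, and at 15.9 against 3.91 TPM in replicate 2. Hnrnpc was at 12.1 TPM with M21 against 4.97 TPM with M4 in replicate 1, and at 4.32 against 0.76 TPM in replicate 2. Hnrnpm, the member furthest apart between the libraries, was at 869 TPM with M21 against 431 TPM with M4 in replicate 1, and at 66.6 against 43.7 TPM in replicate 2. Srsf7 was at 41.0 TPM with M21 against 17.2 TPM with M4 in replicate 1, and at 8.32 against 5.08 TPM in replicate 2. All 5 were higher with M21. In replicate 1 the expected counts with M21 and M4 were close for Hnrnpm (32545 and 32524), Srsf7 (2560 and 2521) and Srsf3 (773 and 732). In these genes it was the TPM, which divide by length, that changed. The counts themselves were lower with M4 for Hnrnpu (77446 and 8222) and Hnrnpc (1439 and 923).

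**Figure D5:**
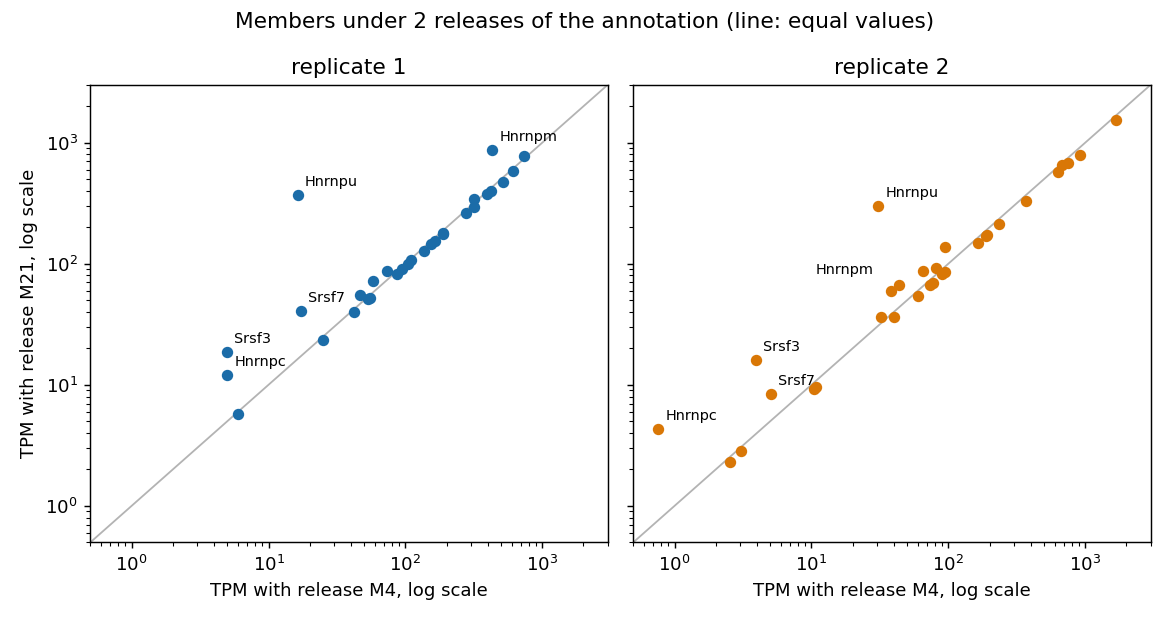
TPM of the 30 detected genes with annotation release M21 against TPM with release M4, both on log axes, with replicate 1 in the left panel and replicate 2 in the right one and a line at equal values. Most genes lie along the line, and the 5 named genes lie above it, Hnrnpu furthest.

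Some members share sequence with other genes. Pseudogene copies, taken as annotated pseudogenes of any kind with at least 90% identity over 300 bases or more, were found for 14 members. They were 80 pseudogenes in all, and were assigned 15.8 TPM in replicate 1 against 24.4 TPM in replicate 2. The most were 38 copies of Hnrnpa3, which held 10.2 TPM in replicate 1 against 15.4 TPM in replicate 2, or 7.95% and 23.2% of the level of Hnrnpa3. The 17 copies of Hnrnpa1 held 2.56 TPM in replicate 1 against 0.2 TPM in replicate 2. Reads may be shared between a member and its copies, so the level of Hnrnpa3 is uncertain.

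Exons of 14 members overlap another gene, in 7 cases a protein-coding one. The sources used here do not say whether counting used strand, so reads there may be shared. Mettl23 and Mfsd11, on the strand opposite Srsf2, were at 20.7 and 22.9 TPM in replicate 1 and at 92.4 and 39.0 TPM in replicate 2. A gene opposite Hnrnpf, 4933440N22Rik, was at 9.95 TPM in replicate 1 against 67.0 TPM in replicate 2. Rmi1, opposite Hnrnpk, was at 28.9 TPM in replicate 1 against 93.1 TPM in replicate 2. March2, on the same strand as Hnrnpm, was at 71.7 TPM in replicate 1 against 29.7 TPM in replicate 2. The gene AC129217.1, on the strand of Hnrnpul2, was at 36.4 TPM in replicate 1 against 4.97 TPM in replicate 2. The other overlapping protein-coding genes were Phykpl with Hnrnpab, Rufy2 with Hnrnph3 and Cox20 with Hnrnpu.

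Related factors were taken from 5 lists of 71 genes in all, of which 46 were detected in both libraries. Of 12 hnRNP proteins under other names, 11 were detected, and 9 of 11 compared were over 2-fold apart between replicates, beside 50.9% of all genes. The most abundant was Pcbp1 (hnRNP E1), a binder of C-rich RNA, at 1101 TPM in replicate 1 against 4064 TPM in replicate 2, a level above that of every Srsf and Hnrnp member in each library. Ptbp1 (hnRNP I), the repressor that binds pyrimidine tracts, was at 576 TPM in replicate 1 against 1152 TPM in replicate 2, and Raly, a relative of Hnrnpc, at 407 TPM in replicate 1 against 663 TPM in replicate 2. Pcbp3 was at 0.01 TPM in replicate 1 and 0 in replicate 2.

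Of 10 SR-related proteins, 8 were detected, and 5 of 8 compared were over 2-fold apart between replicates, 3 higher and 2 lower in replicate 1. Srrm1, a coactivator that bridges SR proteins, was at 554 TPM in replicate 1 against 1262 TPM in replicate 2. Rnps1, which joins the exon junction complex, was at 154 TPM in replicate 1 against 418 TPM in replicate 2, and Acin1, its partner there, at 404 TPM in replicate 1 against 124 TPM in replicate 2. The neural factor Srrm4 was at 0 in replicate 1 and 0.03 TPM in replicate 2. Of 9 kinases and importers of SR proteins, 7 were detected in both libraries and 8 in replicate 1. Clk2, which phosphorylates the RS domain, was at 49.0 TPM in replicate 1 against 44.7 TPM in replicate 2, and its paralog Clk3 at 44.8 TPM in replicate 1 against 21.5 TPM in replicate 2. The importer Tnpo3 was at 55.6 TPM in replicate 1 against 6.13 TPM in replicate 2. The muscle kinase Srpk3 had the lowest mean, at 0.03 TPM in replicate 1 against 0.41 TPM in replicate 2, and Clk4 was at 1.45 TPM in replicate 1 against 0 TPM in replicate 2. Of 8 compared, 6 were over 2-fold higher in replicate 1, beside 35.4% of all genes.

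Nonsense-mediated decay is the pathway known to remove poison exon transcripts. Of 10 factors of nonsense-mediated decay, 10 were detected in replicate 1 and 8 in replicate 2. Over 2-fold apart were 4 of 10 compared, 3 higher and 1 lower in replicate 1, beside 50.9% of all genes. Upf1, its central helicase, was at 101 TPM in replicate 1 against 129 TPM in replicate 2. Smg1, the kinase of Upf1, was at 19.1 TPM in replicate 1 against 87.2 TPM in replicate 2, and Smg6, the endonuclease, at 58.1 TPM in replicate 1 against 40.3 TPM in replicate 2. Upf2, which bridges Upf1 to the exon junction complex, was at 3.35 TPM in replicate 1 against 0.05 TPM in replicate 2, from 1154 and 3 expected counts, and Upf3b, another core factor, at 6.19 TPM in replicate 1 against 0.04 TPM in replicate 2, from 976 and 1 expected counts.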

How the data were processed

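Polyadenylated RNA of 2 replicate libraries from 1 group of estradiol-treated G1E-ER4 cells was analysed. Per the file headers and the deposited descriptions, the authors gave expected counts (estimated fragments per gene or transcript), TPM, the percent of a gene's TPM on each transcript, interval bounds and effective lengths from a transcriptome alignment on mm10 with GENCODE M21, the same with M4, and a second M21 table estimated from reads. Not given in the sources used here are the aligner, the quantifier, the interval level and the use of strand. The main values are the deposited maximum likelihood TPM. Gene levels of the second M21 table were rescaled to an equal total over nuclear protein-coding genes in each library, which leaves transcript shares unchanged.

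Members and lists were chosen with earlier results of these data known. Every member is named with its TPM in both replicates. Counts and intervals are given for the 3 Srsf and 5 Hnrnp genes of highest mean TPM, for any member under 1 TPM, and for the 3 furthest apart between replicates in each direction. Transcript values are given for members with at least 20% on non-coding types in both replicates, for those near 0, and for those whose main transcript differs. Log2 ratios used a pseudocount of 1 TPM, and counts over 2-fold a mean expected count of at least 50. With 1 group there was no test and no p. Alternatives were the M4 and the read-estimated tables, posterior means, CPM, TMM scaling in edgeR 4.0.16 and size factors in DESeq2 1.42.0 on rounded expected counts, other thresholds and pseudocounts, and each replicate left out. Removal of a GC trend, and the main transcript by posterior mean or expected count, were added after seeing the data. Depth was 71485617 and 14121747 expected counts. Pseudogene copies were found with blastn 2.17.0. Python 3.11.15, pandas 2.3.3, numpy 2.4.6, scipy 1.17.1, matplotlib 3.10.9 and R 4.3.3 were used, and the scripts were tested on simulated data. Exon positions and sequences came from GENCODE M21 and the mm10 assembly.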

Additional observations from a re-analysis of the deposited data

How the results depend on the processing

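Of the summary values only the median log2 ratio could change sign, and it did not under the alternatives run. In the rescaled table made from reads, 5 single members turned direction. The split of members over 2-fold apart, 11 higher and 4 lower in replicate 1, was 7 and 8 with the GC trend removed. The hnRNP summed TPM was 6002 in the rescaled table made from reads, in place of 4482, and the median member level was 7.20 in place of 6.56 (log2 of TPM + 1). With the main TPM rescaled in the same way, the sum was 4729 and the median level 6.64. The median log2 ratio of the members, replicate 1 over replicate 2, was 0.52. It was 0.23 in the rescaled table made from reads, 0.95 with CPM, 0.63 with TMM scaling and 0.12 with the GC trend removed. The non-coding share of the SR sum, 24.4%, was 36.8% in the table made from reads, 25.2% with posterior means, 11.9% with only nonsense_mediated_decay and retained_intron counted, and 17.9% by expected counts. That of the hnRNP sum, 40.8%, was 30.2% with only those 2 types and 25.2% by expected counts. The cause was not tested, except that short transcripts weigh less in counts by construction. With each replicate left out in turn, 30 to 30 members and 48 to 50 of the other regulators were detected, the SR sum ran from 1435 to 2443 TPM, the hnRNP sum from 4042 to 4921 TPM, their ratio from 1.65 to 3.43, the median level from 6.37 to 6.76, and the non-coding share from 24.0% to 24.8% for SR and from 36.1% to 45.4% for hnRNP genes. The other 61 values stayed within the spread of the replicates or within 1.5 times the main count. For the sums, their ratio, the median level and the shares with a replicate left out, this was fixed in advance. Each of 2 values always lies within their SD of the mean. The main transcript was the same in 21 members in the table made from reads, in 16 with posterior means and in 13 by expected counts. With 2 libraries each SD rests on 1 difference, and replicate 2, the less deeply sequenced one, limits transcripts of low level. No paired analysis was possible because there is only 1 group.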

Other observations

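Of 30 splicing regulators that are restricted to certain tissues or lie outside the SR and hnRNP names, 12 were at 1 TPM or more in both libraries, and 9 were at 0 in both. Rbm39, a cofactor related to U2AF, was at 326 TPM in replicate 1 against 163 TPM in replicate 2. Khdrbs1 (Sam68), a signal-responsive RNA-binding protein, was at 153 TPM in replicate 1 against 487 TPM in replicate 2. Mbnl1, which drives splicing changes in differentiation and has known targets in erythroblasts, was at 107 TPM in replicate 1 against 131 TPM in replicate 2, and Mbnl2 at 23.3 TPM in replicate 1 against 42.1 TPM in replicate 2, while Mbnl3 was at 0.54 TPM in replicate 1 against 1.20 TPM in replicate 2. Within the PTB family, the blood-enriched Ptbp3 was at 60.8 TPM in replicate 1 against 89.6 TPM in replicate 2 and the neural Ptbp2 at 0.93 TPM in replicate 1 against 1.22 TPM in replicate 2. Celf1 was at 88.4 TPM in replicate 1 against 47.4 TPM in replicate 2, and Elavl1 (HuR) at 69.7 TPM in replicate 1 against 58.1 TPM in replicate 2. Qk was at 7.09 TPM in replicate 1 against 20.7 TPM in replicate 2, Tia1 at 15.3 TPM in replicate 1 against 8.55 TPM in replicate 2 and Rbm10 at 12.2 TPM in replicate 1 against 10.5 TPM in replicate 2.

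The neural Nova1 was at 1.33 TPM in replicate 1 against 0.32 TPM in replicate 2. Rbfox1, Rbfox3, Esrp1, Celf4, Elavl2, Elavl4, Khdrbs2, Khdrbs3 and the muscle factor Rbm24 were listed at 0 in both libraries. Rbfox2, the broadly expressed member of its family, was at 0.98 TPM in replicate 1 against 0.58 TPM in replicate 2. Of 16 genes of the list compared between replicates, 6 were over 2-fold apart, 2 higher and 4 lower in replicate 1, beside 50.9% of all genes apart.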
